A study of Rattus norvegicus with 12 samples.

Results

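Cytotoxic lymphocyte genes were followed as 10 genes fixed by name: Nkg7, Prf1, Gzma, Gzmb, Gzmk, Cd3e, Cd8a, Klrd1, Ncr1 and Cd2. A gene was taken from the rows of the array table that the platform annotation gives to exactly 1 gene symbol, and where several rows carried the same symbol the one with the highest mean signal was used. All 10 were found among the 18166 genes measured in this way. The samples were liver pieces of 12 male obese Zucker rats of the stock Crl:ZUC-Leprfa, homozygous (fa/fa) for a defective leptin receptor gene, aged 5 to 6 weeks at the start of the trial and killed on day 29. In the control group 6 of these rats had eaten an unsupplemented diet, and in the PSC group 6 had eaten a diet with 5% PSC, the labels' name for a biotechnologically produced supplement that the series title ties to the oyster mushroom. The diets had comparable gross energy and crude nutrients, each had been fed to 12 rats for 4 weeks, and the 6 profiled rats of each were drawn at random. Both groups were obese fa/fa animals, so the data speak of the diet within this genotype, and rats were kept in pairs per cage without the cages being named for the arrays. RNA from each rat went on its own Affymetrix Rat Gene 2.0 ST array, an array that reads each gene through several short probes, and values are log2 signals after the RMA procedure.

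Natural killer cells and cytotoxic T cells kill target cells by releasing granules. Perforin, encoded by Prf1, opens a path through the target's membrane, and granzymes, serine proteases encoded by the Gzm genes, then cut substrates inside it. T cells recognise peptides on MHC class I molecules through the T cell receptor, of which Cd3e encodes a signalling subunit, with CD8 as coreceptor, whereas natural killer cells rely on germline-encoded receptors such as NKp46 (Ncr1) and the CD94 heterodimers (Klrd1). Liver holds a resident population of both cell types in its sinusoids. In RNA from a whole piece of liver, more cells of a type and more RNA per cell cannot be told apart.

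The stretch around the start of Nkg7 and of Prf1 is shown because these genes had the smallest p-values of the 10. Sequences come from RefSeq's annotation of the rat assembly GRCr8 and run 5′ to 3′ along the gene's strand, from 250 bases before the annotated start to 50 bases after it. Capitals mark words of 3 kinds searched on both strands: GTGTGA or its complement TCACAC, a half-site of T-box factors, TGTGGT or ACCACA, a Runx word, and AGGAAG or CTTCCT, an Ets word. No 2 marked words overlap in these stretches. The Nkg7 stretch is chr1:102981247-102981546 on the plus strand, and that of Prf1 is chr20:29788790-29789089 on the plus strand.
Nkg7: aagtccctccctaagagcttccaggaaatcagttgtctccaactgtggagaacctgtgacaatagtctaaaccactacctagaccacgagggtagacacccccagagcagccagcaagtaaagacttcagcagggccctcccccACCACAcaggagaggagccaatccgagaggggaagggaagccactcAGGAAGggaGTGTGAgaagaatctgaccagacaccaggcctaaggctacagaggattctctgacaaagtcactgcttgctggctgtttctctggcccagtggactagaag
Prf1: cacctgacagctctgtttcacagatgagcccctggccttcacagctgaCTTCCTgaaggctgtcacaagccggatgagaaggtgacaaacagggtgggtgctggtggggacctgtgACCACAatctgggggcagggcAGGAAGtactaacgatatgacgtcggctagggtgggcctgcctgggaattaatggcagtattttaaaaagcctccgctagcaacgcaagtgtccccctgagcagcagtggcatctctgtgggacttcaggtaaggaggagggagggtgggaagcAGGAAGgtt
The Nkg7 stretch held 1 word of each kind, at -51 (T-box), -60 (Ets) and -106 (Runx) counted from the annotated start. The Prf1 stretch held a Runx word at -134, Ets words at -202, -113 and 42, and no T-box half-site. A stretch of this kind was matched for 8 of the 10 genes, all but Klrd1 and Ncr1. Among these 8, a Runx word was present in 6 (Cd2, Gzma, Gzmb, Gzmk, Nkg7 and Prf1), a T-box half-site in 3 (Gzmb, Gzmk and Nkg7) and an Ets word in 4 (Cd3e, Gzmb, Nkg7 and Prf1). Over all 33469 stretches of 300 bases the shares were 17.3% for Runx, 13.7% for T-box and 34.5% for Ets. A word of letters is a description of the sequence and was not tied to the signals.

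The arrays were alike in their overall distribution, with median log2 signals between 4.71 and 4.85 and correlations of 0.987 to 0.995 across genes. PSC replicates 2 and 5 stood apart from the rest on the second principal component of all genes (16.2% of the variance), at scores of 21.2 and 11.7 where the other 10 arrays lay between -13.5 and 6.39. On the first component (27.2%) PSC replicate 4 scored -1.57, where the other PSC arrays lay between 6.68 and 16.6 and the controls between -18.7 and -4.34. Among all genes 473 passed an adjusted p of 0.05 between diets, 130 higher and 343 lower in PSC-fed rats (limma, Benjamini-Hochberg over 18166 genes). That count lay between 142 (without control replicate 1) and 735 (without PSC replicate 4) when 1 array was left out. The 9 hepatocyte markers measured, among them the plasma protein genes Hpx (log2 fold change -0.10) and Ttr (0.095), had array means of 11.99 to 12.04 in controls and 11.94 to 12.07 in PSC-fed rats, and 0 of them passed (limma; 0 also at unadjusted p below 0.05). Precision is limited by the number of arrays. The p-values set each difference against the spread between these rats, and which of them shared a cage is not known.

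All 10 genes were dim. Their mean log2 signals over the 12 arrays ran from 3.05 for Cd3e to 5.26 for Prf1, below the 5.33 that is the median of all genes. The value table carries no detection calls, so the 1185 olfactory receptor genes on the array, which liver is not known to use, serve as a reference for dim signal. Their median was 2.68, and 90% of them lay below 4.24. Prf1, Nkg7, Gzma and Cd8a, with 5.26, 4.90, 4.58 and 4.57, were above that mark. These 4 were brighter than 97.2%, 95.8%, 94.4% and 94.3% of the olfactory receptor genes.

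The other 6 lay below 4.24, among the dimmer 90% of the olfactory receptor genes. Ncr1 and Klrd1, with 4.05 and 4.04, each exceeded 87.4% of those genes, Gzmk (3.95) 85.9% and Cd2 (3.86) 84.3%. Gzmb (3.18) exceeded 68.7% and Cd3e (3.05) 64.5%. A further reference was 26 genes of other organs, such as Sftpc of lung and Umod of kidney, with a median of 4.33. Prf1 was brighter than 24 of them, Nkg7 than 23, and Gzma and Cd8a than 20 each. Ncr1, Klrd1 and Gzmk were brighter than 11 each, Cd2 than 10, Gzmb than 4 and Cd3e than 3. For these 6 genes, and most plainly for Gzmb and Cd3e, a signal of lymphocytes could therefore not be set apart from the dim range of the array. Prf1, Nkg7, Gzma and Cd8a stood higher, but some olfactory receptor genes and some genes of other organs were brighter than each of them. Probe sets differ in their response, so these ranks describe how far a signal stands above dim ones and give no order of transcript abundance.

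**Figure D1:**
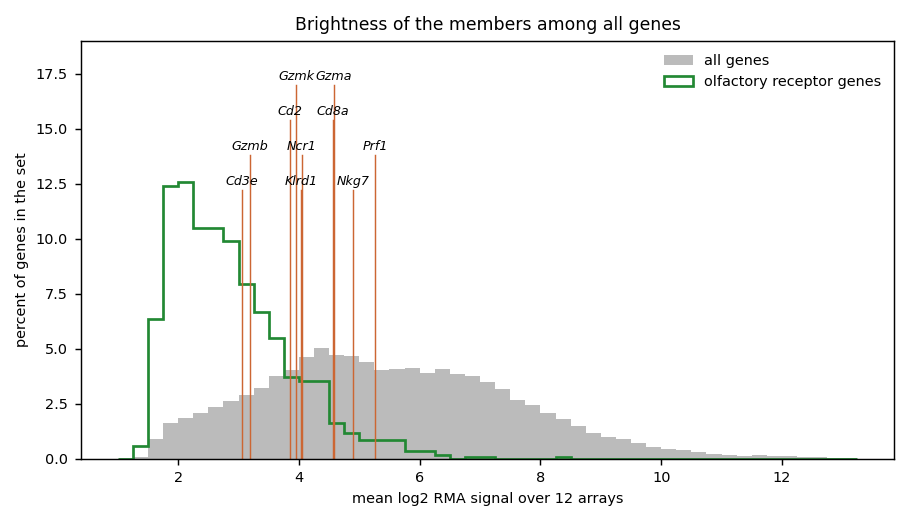
Distribution of mean log2 RMA signal over 12 arrays for all 18166 genes (grey) and 1185 olfactory receptor genes (green outline), each as percent of its set, with a vertical line at each of the 10 cytotoxic lymphocyte genes. Prf1 and Nkg7 are the brightest at 5.26 and 4.90, and Cd3e and Gzmb the dimmest at 3.05 and 3.18.

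Of the 10 genes only Nkg7 rose with the PSC diet past the threshold, by 1.42-fold, and none fell. Over all genes tested 0.716% were called higher and 2.6% called in either direction. At unadjusted p below 0.05 a set of 6 genes was higher in PSC-fed rats (Nkg7, Prf1, Klrd1, Gzma, Cd8a and Ncr1) and 0 were lower, where 9.02% of all genes were higher and 19.1% passed in either direction. Of the 10 values 8 were above 0, against 53.8% of all genes and 65% to 76.6% in the dim classes described below. Their median log2 fold change was 0.18 against 0.01 over all genes. For none of the 10 were the diets wholly apart, which held for 2.19% of all genes. Since the genes were chosen with earlier results of these data known, these counts describe the set and give it no test.

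Dim genes as a class also had values above 0. Sorted by mean signal and divided into 6 equal classes, all genes together had a median log2 fold change of 0.05 in the dimmest class, 0.08 in the second and 0.05 in the third, which hold the 10 genes, and -0.03, -0.05 and -0.03 in the brighter ones. In the third class, with Nkg7, Prf1, Gzma and Cd8a, 1.82% of genes were called, and in the second and the dimmest 0.991% and 0.529%. Olfactory receptor genes had a median of 0.05, with 5 called higher and 1 lower. Less its class median, the log2 fold change was 0.46 for Nkg7, 0.33 for Prf1 and Gzma, 0.17 for Klrd1, 0.13 for Cd8a and 0.10 for Ncr1. The remaining genes lay below their class median, Gzmb by -0.11, Cd2 by -0.09, Gzmk by -0.07 and Cd3e by -0.035. The part of the array-wide shift in the values below was not tested.

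**Figure D2:**
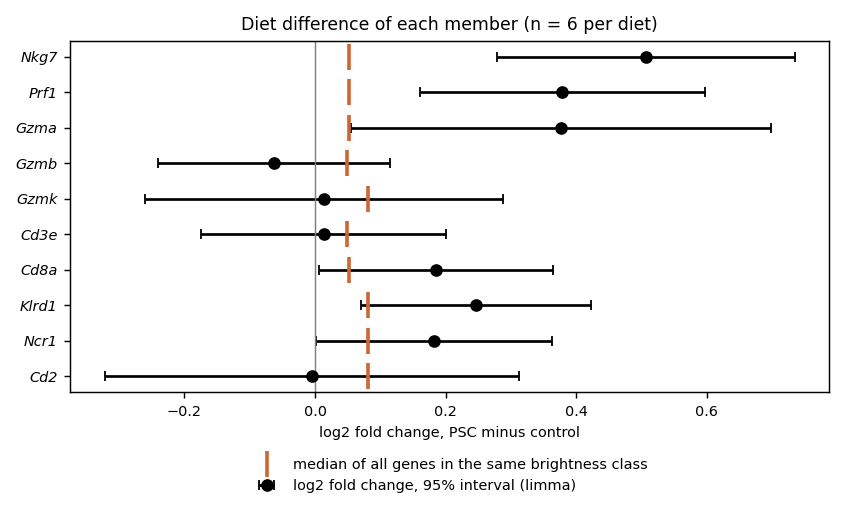
Log2 fold change (PSC minus control) of each gene with its 95% interval from limma (n = 6 per diet), and an orange bar at the median of all genes in the same brightness class. The intervals of Nkg7, Prf1, Gzma, Klrd1, Cd8a and Ncr1 lie above 0, and those of Gzmb, Gzmk, Cd3e and Cd2 span it. Only those of Nkg7, Prf1 and Gzma also lie above the orange bar, Gzma narrowly (0.055 against 0.0517).

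Nkg7 encodes a membrane protein of cytotoxic granules found in natural killer and cytotoxic T cells. Its log2 signal was 4.41 at the lowest, 4.575 at the median and 4.97 at the highest among controls, and 4.97, 5.14 and 5.34 among PSC-fed rats. The groups met at a single value, since PSC replicate 1 equalled control replicate 5 at 4.97 and the other PSC arrays lay above every control. The means were 4.64 ± 0.25 and 5.15 ± 0.16 (SD, n = 6), which differed by 0.51 on the log2 scale (SE 0.11, 95% interval 0.28 to 0.74, limma adjusted p = 0.0266). A two-sided exact permutation of the arrays between diets gave p = 0.00433.

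The Nkg7 call depended on single rats, while its size did not. With 1 array left out the log2 fold change lay between 0.46 and 0.57. The adjusted p was 0.0699 with control replicate 1 removed and 0.0596 with control replicate 6 removed (limma). Removing PSC replicate 5 gave 0.0592, and removing PSC replicate 6 gave 0.0616. It stayed below 0.05 in the other 8 fits. Without PSC replicates 2 and 5 together it was 0.0757 at a log2 fold change of 0.49.

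Prf1, the perforin gene, had the second smallest p. Control signals were 4.93, 4.985 and 5.37 at the lowest, median and highest, and PSC signals 5.21, 5.415 and 5.71. Overlap came from control replicates 5 and 6 (5.37 and 5.22): the other 4 controls lay below every PSC array. The log2 fold change of 0.38 (SE 0.10, 95% interval 0.16 to 0.60) had a limma adjusted p of 0.0622 and an exact permutation p of 0.0152. It passed only without control replicate 5 (adjusted p = 0.0427) and without PSC replicates 2 and 5 together (adjusted p = 0.0463, log2 fold change 0.48). In the other fits the limma adjusted p reached up to 0.141.

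**Figure D3:**
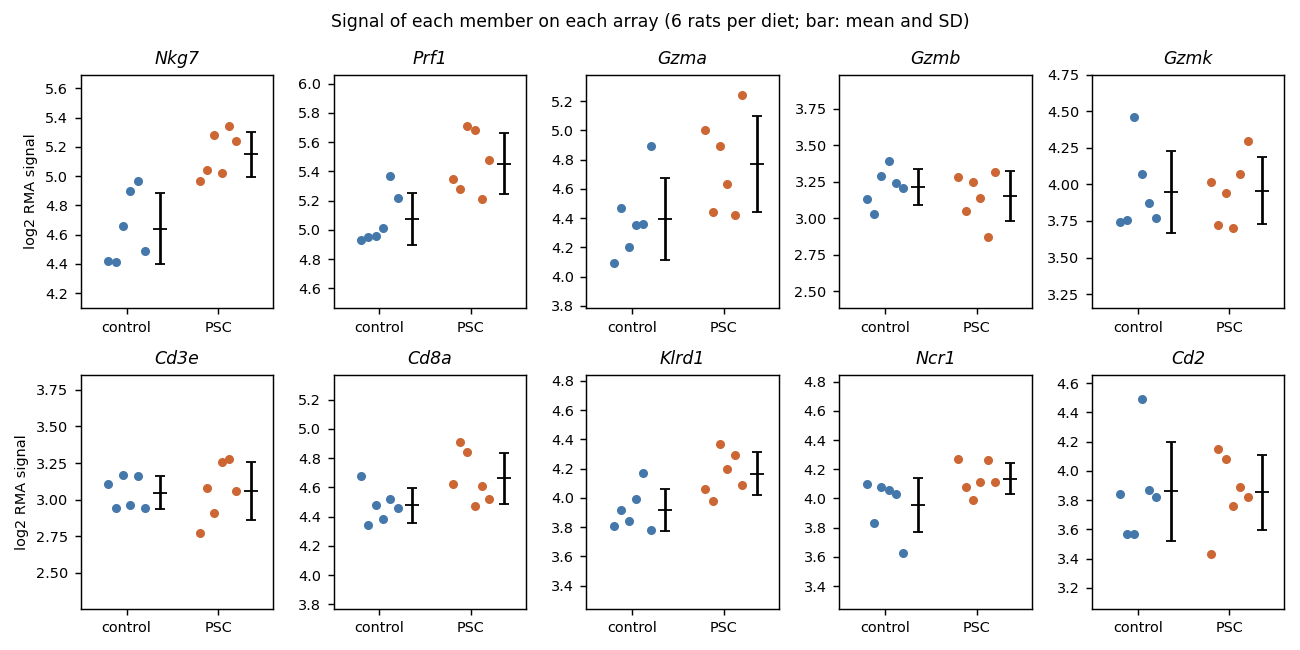
Log2 RMA signal of each of the 10 genes on each array, blue for the 6 control rats and orange for the 6 PSC-fed rats, with mean and SD beside each group; every panel spans 1.6 log2 units. PSC points sit mostly above the controls for Nkg7 (4.97 to 5.34 against 4.41 to 4.97) and Prf1, and are mixed with them for Gzmb, Gzmk, Cd3e and Cd2.

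The 3 granzymes gave different values. Gzma encodes a tryptase-like granzyme and lies beside Gzmk in the rat genome. Its signals were 4.09, 4.355 and 4.89 at the lowest, median and highest in controls, and 4.42, 4.76 and 5.24 in PSC-fed rats. Control replicate 6 was the only control above 4.47, and PSC replicates 1, 3 and 6 (5.00, 4.89 and 5.24) were the high ones of their group. The log2 fold change was 0.38 (SE 0.15, 95% interval 0.06 to 0.70, limma adjusted p = 0.189, exact permutation p = 0.0563). It was 0.32 under quantile and 0.32 under cyclic loess normalization.

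Gzmk, another tryptase-like granzyme, averaged 3.95 ± 0.28 with the control diet and 3.96 ± 0.23 with PSC (SD, n = 6). Its log2 fold change was 0.01, with a 95% interval from -0.26 to 0.29 (limma adjusted p = 0.968), and its sign turned under quantile (-0.06) and cyclic loess (-0.06) normalization. The highest signal, 4.46, came from control replicate 3.

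Gzmb encodes the granzyme that cleaves after aspartate and activates caspases. Its brightest row had 3.22 ± 0.13 in controls and 3.15 ± 0.17 in PSC-fed rats, a log2 fold change of -0.06 (95% interval -0.24 to 0.12, limma adjusted p = 0.712). Gzmb was the only one of the 10 with several rows, and its other two rows were dimmer, at means of 2.20 and 2.09. Those had log2 fold changes of 0.19 (SE 0.09) and 0.18 (SE 0.10), with limma adjusted p of 0.333 and 0.402 over all 30347 rows of the table. Averaged over its rows the gene had 0.10 (limma adjusted p = 0.366), so its direction depended on the row. Granzyme genes resemble each other, and probes may bind transcripts of close relatives.

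Among natural killer receptors, Klrd1 had the third smallest p of the 10. It encodes CD94, the partner chain of the NKG2 receptors that read MHC class I. Signals were 3.78, 3.88 and 4.17 at the lowest, median and highest in controls, and 3.98, 4.145 and 4.37 in PSC-fed rats. Every PSC array lay above the control median, and control replicates 4 and 5 reached into the PSC range. The log2 fold change was 0.25 (SE 0.08, 95% interval 0.07 to 0.42, limma adjusted p = 0.121, exact permutation p = 0.0216). Over the settings other than leaving 1 array out it lay between 0.18 and 0.26.

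Ncr1 encodes NKp46, an activating receptor used as a defining marker of natural killer cells. Controls had 3.63, 4.045 and 4.10 at the lowest, median and highest, and PSC-fed rats 3.99, 4.11 and 4.27. The log2 fold change was 0.18 (SE 0.08, 95% interval 0.001 to 0.36, limma adjusted p = 0.26, exact permutation p = 0.0671). It was 0.11 under quantile and 0.11 under cyclic loess normalization, and 0.12 without control replicate 6. The low controls were replicates 2 and 6 at 3.83 and 3.63. The other 4 controls lay between 4.03 and 4.10, within the PSC range.

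Of the T cell genes, Cd8a, which encodes the alpha chain of the CD8 coreceptor and is also carried by rat natural killer cells, had 4.48 ± 0.12 in controls and 4.66 ± 0.18 in PSC-fed rats. Its signals ran from 4.34 to 4.68 and from 4.47 to 4.91, with PSC replicates 2 and 3 (4.91 and 4.84) above every control. The log2 fold change was 0.19 (SE 0.08, 95% interval 0.01 to 0.36, limma adjusted p = 0.247, exact permutation p = 0.0693). It was 0.13 under quantile and 0.13 under cyclic loess normalization. Cd8b, the other CD8 chain, had a log2 fold change of 0.0017 (SE 0.09).

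Cd3e, the CD3 epsilon subunit of the T cell receptor, showed no difference that these arrays could resolve. Its signals ran from 2.94 to 3.17 in controls and from 2.77 to 3.28 in PSC-fed rats, and its log2 fold change was 0.01 (95% interval -0.17 to 0.20, limma adjusted p = 0.951). The sign turned under quantile (-0.05) and cyclic loess (-0.04) normalization. Cd3d and Cd3g, the CD3 delta and gamma subunits, had 0.07 and -0.01 and were brighter than 70.5% and 57.3% of olfactory receptor genes. All 3 CD3 subunits, defining markers of T cells, were thus within the dim range of the array.

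Cd2 encodes an adhesion molecule of T and natural killer cells. Its log2 signals were 3.57, 3.83 and 4.49 at the lowest, median and highest in controls, and 3.43, 3.855 and 4.15 in PSC-fed rats. Control replicate 4 stood alone at 4.49. The log2 fold change was -0.0050 (95% interval -0.32 to 0.31, limma adjusted p = 0.989), and 0.12 without that array (adjusted p = 0.637).

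Taken rat by rat, the mean log2 signal over the 10 genes lay between 3.92 and 4.16 in controls and between 4.17 and 4.33 in PSC-fed rats. As the genes were chosen with earlier results of these data known, these ranges are a description and no test. PSC replicate 2, at 4.17, also had the highest median of all arrays (4.85) and the highest mean over olfactory receptor genes (2.96). The part of such array-wide differences was not tested. With Nkg7 left out, control replicate 4 (4.078) came just above PSC replicate 2 (4.077). PSC replicates 3 and 6 were the highest, at 4.33 and 4.32. For PSC replicate 6 the high genes were the granule genes, with a mean of 4.72 over Nkg7, Prf1 and the 3 granzymes, while its mean over Cd3e, Cd8a, Cd2, Klrd1 and Ncr1 was 3.92, inside the control range of 3.72 to 3.98. PSC replicate 2 had the lowest granule mean of its group, 4.31, and 4.04 over the other 5 genes.

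Within a diet the 10 genes did not vary together in any uniform way. After each diet's mean was subtracted, the 45 pairs had Pearson correlations from -0.62 to 0.74 over 12 arrays, with a median of 0.06 and 26 above 0. The highest was between Nkg7 and Klrd1 (r = 0.74, permutation p = 0.009; Spearman's rho = 0.68, permutation p = 0.0232). After Benjamini-Hochberg adjustment over the 45 pairs these became 0.405 and 0.412, and r was 0.60 without the 2 arrays farthest from the median of Nkg7. By Spearman's rho, Gzma with Cd3e (-0.74, permutation p = 0.0182) and Nkg7 with Cd2 (0.64, permutation p = 0.0275) were also below an unadjusted 0.05, each at 0.412 after adjustment. No pair passed after adjustment by either measure.

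The lowest Pearson correlation was that of Gzma with Cd3e (r = -0.62, permutation p = 0.055, adjusted 0.785), at -0.80 without the 2 arrays farthest from the median of Gzma. Over all named genes, those with a pattern most like that of Nkg7 within diets were Relt (r = 0.88), Tgif2lx2 (0.86), Mir802 (0.86), Olr1191 (0.86) and Cd300e (0.86), the highest of the 18166 genes over 12 arrays and given without a test. None of the 5 passed between diets, and their log2 fold changes ran from -0.13 (Cd300e) to 0.37 (Mir802).

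**Figure D4:**
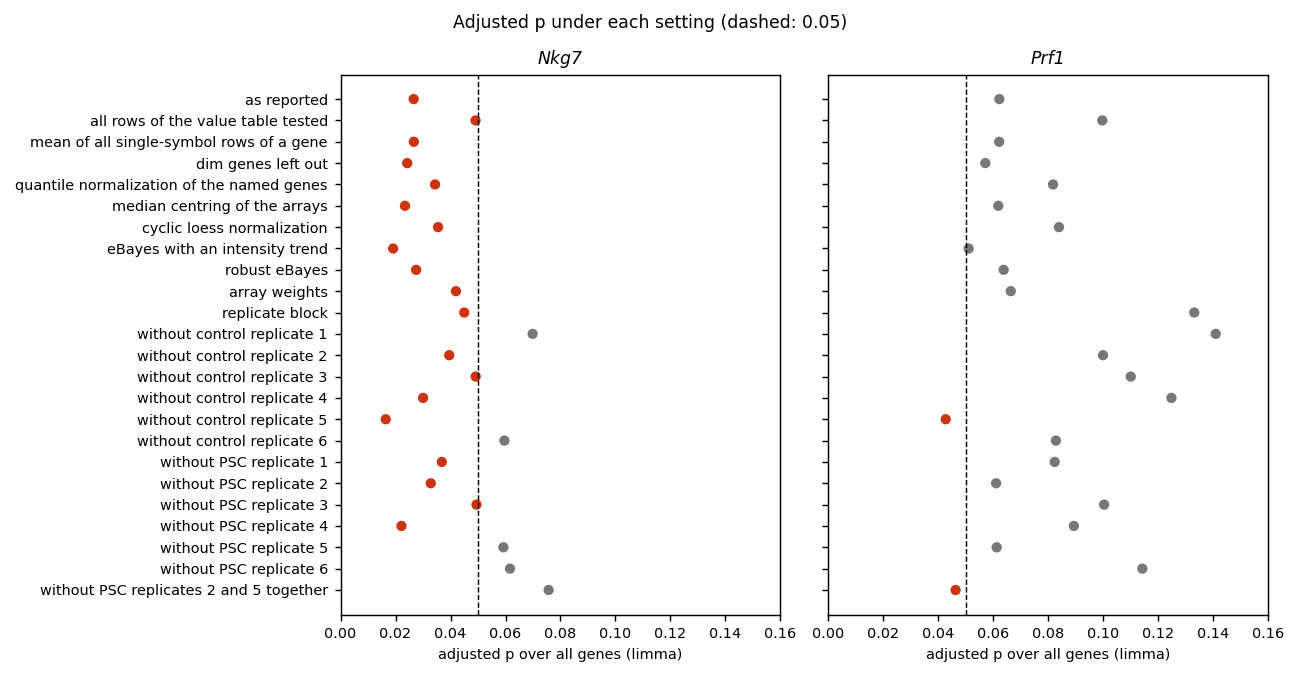
Adjusted p over all genes (limma) for Nkg7 and Prf1 under each setting, with a dashed line at 0.05 and red points below it. Nkg7 runs from 0.0164 to 0.0757 and Prf1 from 0.0427 to 0.141.

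Lists of other genes of the pathway were read beside these 10, without a test over any list. Over all genes 2.6% were called in either direction and 0.716% higher (limma). At unadjusted p below 0.05 the shares were 19.1% and 9.02%. Of 19 measured genes for granule contents, loading and release, 3 fell and 0 rose, with a median log2 fold change of 0.03. Those that fell were Fas, the death receptor that Fas ligand binds (from 6.76 ± 0.19 to 6.26 ± 0.13, log2 fold change -0.50, SE 0.09, limma adjusted p = 0.0133), Serpinb9, the inhibitor of granzyme B (-0.45, adjusted p = 0.0382), and Ctsl, a lysosomal protease (-0.37, adjusted p = 0.0386). For Fas all 6 PSC arrays (6.12 to 6.42) lay below every control (6.47 to 6.96), and its call held whichever array was left out, at adjusted p up to 0.0391.

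The other two calls rested on single arrays. Serpinb9 passed in 4 of the 12 fits without 1 array (control replicate 2, PSC replicates 2, 3 and 4), with adjusted p up to 0.0936 in the others, and Ctsl in 3 (control replicates 2 and 5, PSC replicate 4), with up to 0.0944. Of the 16 that did not pass, Tnfsf10, the gene of the death ligand TRAIL, had the smallest p, with a log2 fold change of -0.42 and an adjusted p of 0.0527 (SE 0.11). It passed only without control replicate 2 (0.0074), with dim genes left out (0.0487) and with an intensity trend (0.0356), and had up to 0.183 otherwise. Faslg, the Fas ligand gene, had 0.29 (SE 0.08) and passed only without PSC replicate 4 (limma adjusted p = 0.0202), with up to 0.267 in the other fits. The granzymes Gzmm and Gzmc had 0.29 (SE 0.09) and 0.32 (SE 0.14), and Srgn, the granule proteoglycan gene, had -0.07 (SE 0.10). These 5 were named after their values were seen. Among all members of this list 5 were higher and 4 lower at unadjusted p below 0.05.

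Among 16 measured natural killer receptors and adaptors 1 rose and 0 fell (median 0.07). Klrc3, a gene of the NKG2 family whose products pair with CD94, went from 3.00 ± 0.20 to 3.61 ± 0.26 (SD, n = 6), higher by 0.61 on the log2 scale (SE 0.12, limma adjusted p = 0.0193). Its controls ran from 2.75 to 3.33 and its PSC arrays from 3.33 to 3.96, meeting at 3.33. The adjusted p stayed below 0.05 whichever array was left out, at up to 0.0481. Its mean signal of 3.31 was brighter than 72.8% of olfactory receptor genes, and its relatives Klrc1 and Klrc2 had 0.14 and -0.14. Klri1, a lectin-like receptor gene named after its values were seen, had 0.40 (SE 0.11). It passed only without PSC replicate 4 (limma adjusted p = 0.0337), with up to 0.1456 in the other fits.

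In the T cell receptor complex and its signalling chain 0 of 18 measured genes passed and 1 was higher at unadjusted p below 0.05 (limma), with a median of 0.05. The smallest p-values were those of Cd247, the zeta chain that T cells and natural killer cells share (0.15, SE 0.06, adjusted p = 0.17), and of the adaptor gene Lat (-0.14, adjusted p = 0.336). Of 14 transcription factor genes 0 passed (limma; 3 higher and 1 lower at unadjusted p below 0.05), with Tcf7 of T cell development at 0.20 and Prdm1, a transcriptional repressor, at -0.23 (-0.13 without PSC replicates 2 and 5 together).

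Of 11 cytokine receptor genes 1 fell, Il2rg, the shared gamma chain of the interleukin 2 receptor family (from 5.94 ± 0.25 to 5.49 ± 0.19, log2 fold change -0.46, SE 0.11, limma adjusted p = 0.0478). It passed in 2 of the 12 fits without 1 array (control replicate 2, PSC replicate 4), with adjusted p up to 0.106 in the others. It was also lost under quantile (adjusted p = 0.0559) and cyclic loess (0.0539) normalization. Of 19 cytokine and chemokine genes 0 passed (limma; 4 higher and 4 lower at unadjusted p below 0.05). Ccl5, a chemokine that cytotoxic lymphocytes make, had 0.43 (SE 0.12, adjusted p = 0.065). It passed without PSC replicate 2 (adjusted p = 0.0142), without PSC replicates 2 and 5 together (0.0271), and under quantile (0.0423) and cyclic loess (0.0417) normalization, an intensity trend (0.0463) and array weights (0.0364). In the other fits its limma adjusted p reached up to 0.1465. Cxcl16, the ligand of Cxcr6, had -0.53 (SE 0.15, adjusted p = 0.0644). It passed only without control replicate 2 (0.0301), without PSC replicate 4 (0.0345) and with an intensity trend (0.0451), and had up to 0.1455 otherwise.

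MHC class I presentation, which displays the peptides that cytotoxic T cells read, had 0 of 13 genes above 0 and a median of -0.14, with 0 passing (limma; 4 lower at unadjusted p below 0.05). These genes were bright, and the brighter classes of all genes also leaned below 0. In those classes 41.6%, 33.8% and 39.9% of genes were above 0, at medians of -0.025, -0.045 and -0.0267. The part of that shift in this list was not tested. Tap2, a peptide transporter chain, and Tapbp, the tapasin gene, had -0.30 and -0.32, with adjusted p of 0.0759 and 0.0755. Array means over the list ran from 8.58 to 8.87 in controls and from 8.49 to 8.64 in PSC-fed rats.

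**Figure D5:**
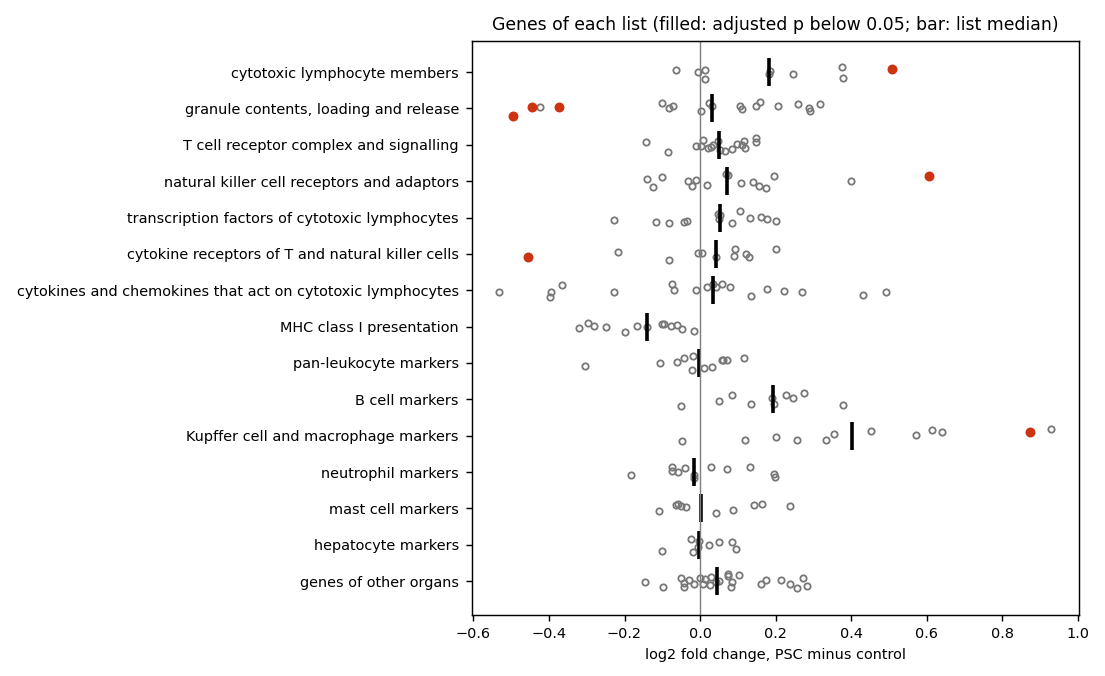
Log2 fold change (PSC minus control) of every measured gene in each list, with filled red points at limma adjusted p below 0.05 and a black bar at the list's median. The 10 cytotoxic lymphocyte genes have a median of 0.18, B cell markers 0.19, Kupffer cell and macrophage markers 0.40 and genes of other organs 0.05.

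Markers of other cell types were read beside the 10 genes, and their part in the Nkg7 result was not tested. Over all genes 0.716% were called higher, and 9.02% were higher at unadjusted p below 0.05 (limma). Pan-leukocyte markers had a median of -0.0042, with 0 of 12 passing (limma; 0 higher and 1 lower at unadjusted p below 0.05). Arhgdib and Cd53 had the smallest p-values, with log2 fold changes of 0.12 and -0.31. Array means over that list ran from 6.00 to 6.29 in controls and from 6.01 to 6.31 in PSC-fed rats. B cell markers had a median of 0.19, close in size to the 10 genes, with 0 of 10 passing and 6 higher at unadjusted p below 0.05 (limma). Their array means ran from 4.42 to 4.44 in controls and from 4.53 to 4.70 in PSC-fed rats. The highest were those of PSC replicates 5 and 2 (4.70 and 4.63). How often the means of other dim gene lists keep the diets apart was not computed, so these ranges are a description only. Cd79a and Cd79b, the signalling chains of the B cell receptor, had 0.28 and 0.23, and 0.16 and 0.14 without PSC replicates 2 and 5 together.

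Kupffer cell and macrophage markers had a median of 0.40, with 11 of 12 above 0, against 53.8% of all genes. At unadjusted p below 0.05 there were 8 higher and 0 lower (limma), where 9.02% of all genes were higher. Past the threshold 1 rose: Cd163, the haemoglobin scavenger receptor (0.87, SE 0.21, limma adjusted p = 0.0436). Array means over the list ran from 6.19 to 7.19 in controls and from 7.06 to 7.43 in PSC-fed rats. The low end was control replicate 1, and the next control was replicate 5 at 6.785. The Cd163 call was kept in 4 of the 12 fits without 1 array (control replicates 1 and 2, PSC replicates 2 and 4), with adjusted p up to 0.0885 in the others. Neutrophil and mast cell markers had medians of -0.02 and 0.0017, with 0 of 12 and 0 of 10 passing (limma; 1 higher and 1 lower, and 2 higher, at unadjusted p below 0.05). The smallest p-values there were those of S100a8 (-0.18) and Il1r2 (0.20) of neutrophils, and of Mcpt8 (0.24) and Gata2 (0.14) in the mast cell list. Genes of other organs, a second dim reference, had a median of 0.05 with 0 of 26 passing, and 5 were higher at unadjusted p below 0.05 (limma), among them Sftpc (0.26, and 0.17 without PSC replicate 2) and Umod (0.18).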

How the data were processed

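Total RNA from 12 livers, 1 rat per array, was hybridised to Affymetrix Rat Gene 2.0 ST arrays. Per the submitters' processing notes, the authors ran RMA in Affymetrix Expression Console; the deposited log2 signals of 30347 transcript clusters were used without further normalization. RMA equalises the arrays' distributions and compresses small changes of dim genes. The sources used here give neither software versions nor the genome build. Of the rows, 18511 name 1 gene symbol, 575 several and 11261 none in the annotation used. The brightest row of each of 18166 genes was tested, with groups taken from the sample titles.

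Diets were compared with limma 3.58.1 in R 4.3.3, without covariates, two-sided, at a Benjamini-Hochberg adjusted p of 0.05 over all genes. Exact permutation used every assignment of the arrays to diets, and correlations used 100000 permutations within diets. Simulated arrays took the means and spreads of all 18166 genes, with independent normal noise and changed genes drawn at random. Of 100 genes changed by 0.5 (log2) 78% were recovered, and of 100 changed by 1, 100%. Smaller changes were not simulated, nor were the 10 genes on their own. The 10 genes, the lists and the tests were chosen with earlier results of these data known. Named from each list are genes past the threshold, otherwise the 2 with the smallest p, and the 5 genes most like Nkg7; others are marked where they appear or complete a protein complex or gene family. Faslg was found by a synonym. Alternatives covered rows, dim genes, normalization, variance prior, weights, replicate block, threshold and left-out arrays.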

Additional observations from a re-analysis of the deposited data

Results flagged for a closer look

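Cd2 in control replicate 4, at a log2 signal of 4.49, stood apart from the other 5 controls, which lay between 3.57 and 3.87; its gap to the nearest of them, as a share of the group's range, exceeded the 95% critical value of Dixon's test for 6 samples. It was the only 1 of the 20 groups tested (10 genes in 2 diets), and chance flags about 1 in 20 groups.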

How the results depend on the processing

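Nkg7 was higher in PSC-fed rats under every setting run, with log2 fold changes of 0.46 to 0.57 without 1 array, and lost its call without PSC replicates 2 and 5 together (0.49); the cause was not tested. The number of the 10 genes past the threshold was 0 to 2 without 1 array and 2 at an adjusted p below 0.1 (Nkg7 and Prf1). The count of all changed genes was 142 to 735 without 1 array, 254 with all rows tested, 225 without PSC replicates 2 and 5 together, 1140 at an adjusted p below 0.1 and 94 with the replicate number as a block. The numbers do not pair the rats: same-numbered arrays correlated at -0.151 to 0.111 in their deviations from the diet means, and 2 of 12 arrays correlated best with their own number. With this replicate block Nkg7 kept its call (adjusted p = 0.0450), and Fas (0.0566), Klrc3 (0.0555), Serpinb9 (0.107), Ctsl (0.105), Il2rg (0.0988) and Cd163 (0.0988) did not. Serpinb9, Ctsl, Il2rg and Cd163 also lost their calls with all rows tested (adjusted p = 0.0656, 0.0668, 0.0793 and 0.0726) and without PSC replicates 2 and 5 together (0.0733, 0.105, 0.135 and 0.0886). Serpinb9 lost it with cyclic loess (0.0504), and Il2rg with quantile (0.0559), cyclic loess (0.0539) and array weights (0.0508).

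The 4 genes with values near 0 changed sign. Cd2 had 0.0017 with median centring and -0.064 to 0.121 without 1 array. Cd3e had -0.0549 with quantile and -0.0431 with cyclic loess normalization, -0.0056 with array weights, -0.0467 without PSC replicates 2 and 5 together, and -0.0307 to 0.0713 without 1 array. Gzmk had -0.0593 with quantile and -0.0568 with cyclic loess normalization and -0.055 to 0.116 without 1 array. Gzmb had 0.102 as the mean of its rows and 0.0325 without PSC replicates 2 and 5 together. The cause was not tested. With genes at or below the olfactory receptor median left out, the 10 genes all remained.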
